A study of Mus musculus with 32 samples.

Results

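The genotype by glucose interaction was measured in cultured mouse islets, and it asks whether islets that make human islet amyloid polypeptide (IAPP) answered high glucose differently from islets that make mouse IAPP. All 32 of the 32 libraries entered, as 8 experiment sets that each held 1 library of 4 groups: hIAPP islets in 16.7 mM glucose, hIAPP islets in 11.1 mM, mIAPP islets in 16.7 mM and mIAPP islets in 11.1 mM. In hIAPP mice the wild-type human gene stood at the mouse Iapp locus, where homologous recombination had placed it. The mIAPP mice were their wild-type littermates, with the mouse gene. Both were on a C57BL/6NHsd background, and islets were taken at 10 weeks of age from males and females. All islets first recovered overnight at 11.1 mM glucose and were then kept for 48 h at 16.7 or 11.1 mM. The number of animals behind a set is not given in the sources used here, so the spread between animals cannot be read from the p-values. The edgeR p-values measure the spread left between the 32 libraries once the average level of each set is taken out. The exact sign-flip tests and limma on per-set differences measure the spread between the 8 sets.

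For each gene and set, the glucose difference (16.7 minus 11.1 mM) in hIAPP islets minus the glucose difference in mIAPP islets gave 1 difference of differences. A positive interaction therefore means a larger rise, or a smaller fall, with glucose in hIAPP islets, and a negative interaction the opposite. The log2 interaction given below comes from 1 model fitted to all libraries with the set as a block. Its standard error (SE) was derived from the F test of that fit, as the size of the log2 value divided by the square root of F. Levels are in CPM, counts relative to the scaled total of the library, and are not corrected for gene length, so they are compared between groups and not between genes. Where 3 levels are given for a group, they are the lowest, the median and the highest of its 8 libraries.

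IAPP is a peptide hormone that beta cells store and release together with insulin, so that high glucose raises its output. The human peptide can assemble into amyloid fibrils outside the beta cell, while the mouse peptide lacks the amyloid-forming stretch. Amyloid in islets is known to be accompanied by release of interleukin 1 from macrophages, by NF-kB signalling and by loss of beta cells. The series title connects islet amyloid formation to Star, a gene of mitochondrial cholesterol import.

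Of 16428 genes tested, 513 (3.12%) passed an adjusted p of 0.05 for the interaction, with 357 positive (2.17%) and 156 negative (0.95%). Without the set as a replicate block 196 passed, 165 positive and 31 negative, and by limma on the per-set differences 163, 151 positive and 12 negative. DESeq2 called 5.84% and limma voom 5.65% of all genes, and 3055 of the 16428 had an unadjusted p under 0.05 in edgeR. Most positive interactions were rises with glucose that were larger in hIAPP islets. Over the 357 genes the median glucose effect was a log2 fold change of 1.06 in hIAPP and 0.21 in mIAPP islets; estimates were positive for 354 genes in hIAPP and for 254 in mIAPP islets. Negative interactions were of more than 1 kind: over the 156 genes the median glucose effect was -1.07 in hIAPP and -0.15 in mIAPP islets; estimates were positive for 17 genes in hIAPP and for 65 in mIAPP islets. The median interaction over all genes was -0.02. The comparisons behind these values share libraries, and the glucose effect itself passed for 65.5% of all genes in hIAPP and 47.5% in mIAPP islets, against 20.5% for the genotype effect at 16.7 mM and 0.128% at 11.1 mM.

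**Figure D1:**
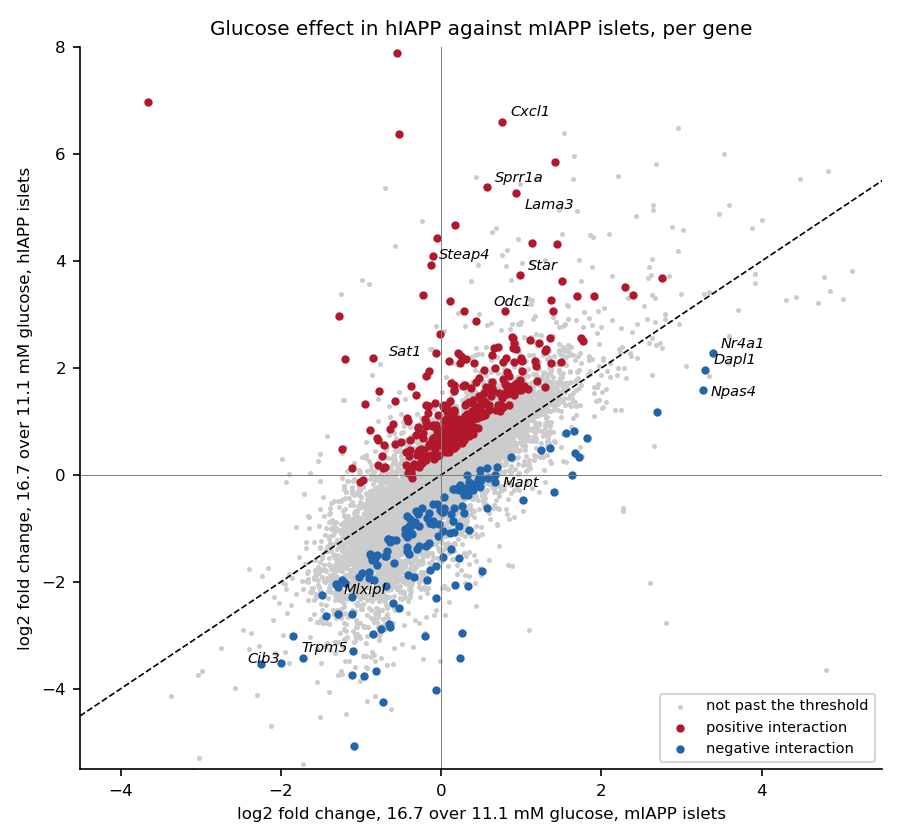
Each point is 1 gene, with its log2 fold change from 11.1 to 16.7 mM glucose in mIAPP islets on the x axis and in hIAPP islets on the y axis. Red and blue points passed an adjusted p of 0.05 for a positive or negative interaction, grey points did not, and the dashed line marks equal effects. The 357 red points have a median of 0.21 on the x axis and 1.06 on the y axis, while the blue points spread over smaller rises (Npas4, Dapl1, Nr4a1) and deeper falls (Cib3, Trpm5) in hIAPP islets; 19 genes lie outside the axes.

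The 8 glucose differences of hIAPP islets all lay above the 8 of mIAPP islets for 101 genes (0.615%) and all below for 26 genes (0.158%). Of the genes named below, the first kind included Star, Dusp10, Odc1, Sat1 and Steap4, and the second kind Defb1, Cib3, Mapt and Otoa, each with others not listed here.

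Libraries differed in more than their group. Total counts per library were 24.7 to 43.7 M for hIAPP at 16.7 mM, 18.8 to 34.8 M for hIAPP at 11.1 mM, 24.5 to 37.1 M for mIAPP at 16.7 mM and 16.1 to 29.1 M for mIAPP at 11.1 mM. The difference of differences of the total count was -0.66 ± 10.5 M (SD, n = 8; exact sign-flip test, two-sided p = 0.852). The 2 insulin genes held 14.9 to 29.9% of the counts in every library, as beta-cell-rich islets would. Mitochondrially encoded genes held 4.06 ± 1.63% of the counts for hIAPP at 16.7 mM, 16.6 ± 7.83% for hIAPP at 11.1 mM, 11.3 ± 11.2% for mIAPP at 16.7 mM and 18.2 ± 11.6% for mIAPP at 11.1 mM (SD, n = 8 each). Their difference of differences was -5.57 ± 8.95 percentage points, negative in 7 of 8 sets (exact sign-flip test, two-sided p = 0.117), and on a log2 scale -1.14, with p = 0.0078125, the smallest that 8 sets allow. On the log2 scale the mitochondrial share thus moved with the interaction, and its part in the results below was not tested. In sets 3 and 4 all 8 libraries lay under 10%. With the mitochondrial level as a covariate 331 genes were called, 220 of the 513 among them, and named calls that ended with it are given with their values below.

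**Figure D2:**
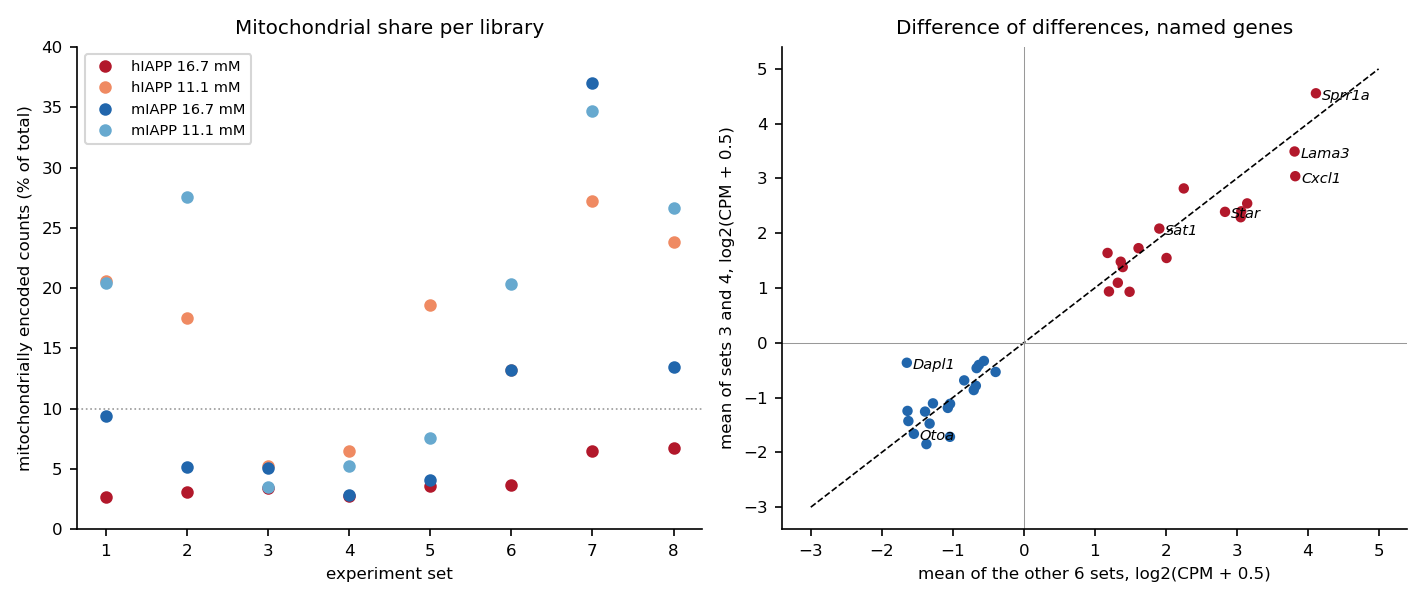
Left, the share of counts from mitochondrially encoded genes (percent of all counts) for each of the 4 libraries of each experiment set, with a dotted line at 10%; all 8 hIAPP libraries at 16.7 mM, and all 8 libraries of sets 3 and 4, lie under it. Right, the difference of differences (log2(CPM + 0.5)) of genes named by rule, as the mean of the other 6 sets (x axis) and of sets 3 and 4 (y axis); red genes had a positive and blue genes a negative interaction. The rule asked for 1 sign in at least 7 of 8 sets, so agreement in sign is no check; the value was larger in size in sets 3 and 4 for 6 of 17 red and 9 of 18 blue genes.

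Star (chromosome 8, 25806555 to 25815982, plus strand), which encodes the steroidogenic acute regulatory protein that carries cholesterol to the inner mitochondrial membrane, had the smallest p of all genes. Star stood at 67, 137 and 215 CPM in hIAPP islets at 16.7 mM glucose and at 4.46, 10.0 and 17.9 CPM at 11.1 mM, against 13.3, 17.3 and 21.8 CPM in mIAPP islets at 16.7 mM and 4.87, 8.35 and 12.8 CPM at 11.1 mM. No hIAPP library at 16.7 mM overlapped a library of another group, while the hIAPP and mIAPP libraries at 11.1 mM did overlap. The difference of differences ran from 1.94 to 3.68 over the 8 sets, with a mean of 2.72 ± 0.51 (SD, n = 8; log2(CPM + 0.5); exact sign-flip test, two-sided p = 0.0078125, the smallest possible). In CPM it averaged 120.8 ± 53.6. The sign-flip test and the edgeR fit use the same libraries, and the series title already names Star. Neither is therefore separate support for the other. The interaction was 2.75 ± 0.26 (SE; edgeR adjusted p = 1.35e-06), 2.74 with the mitochondrial covariate and 2.67 in the 18 libraries under 10% mitochondrial counts (adjusted p = 0.0237).

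No other gene of the list that holds Star passed. Of 15 tested genes of mitochondrial cholesterol import and steroidogenesis, Star was the 1 called, beside 3.12% of all genes. The list's median interaction was 0.07. Cyp27a1, the mitochondrial sterol 27-hydroxylase, had the next smallest p with -0.98 ± 0.37 (adjusted p = 0.144).

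**Figure D3:**
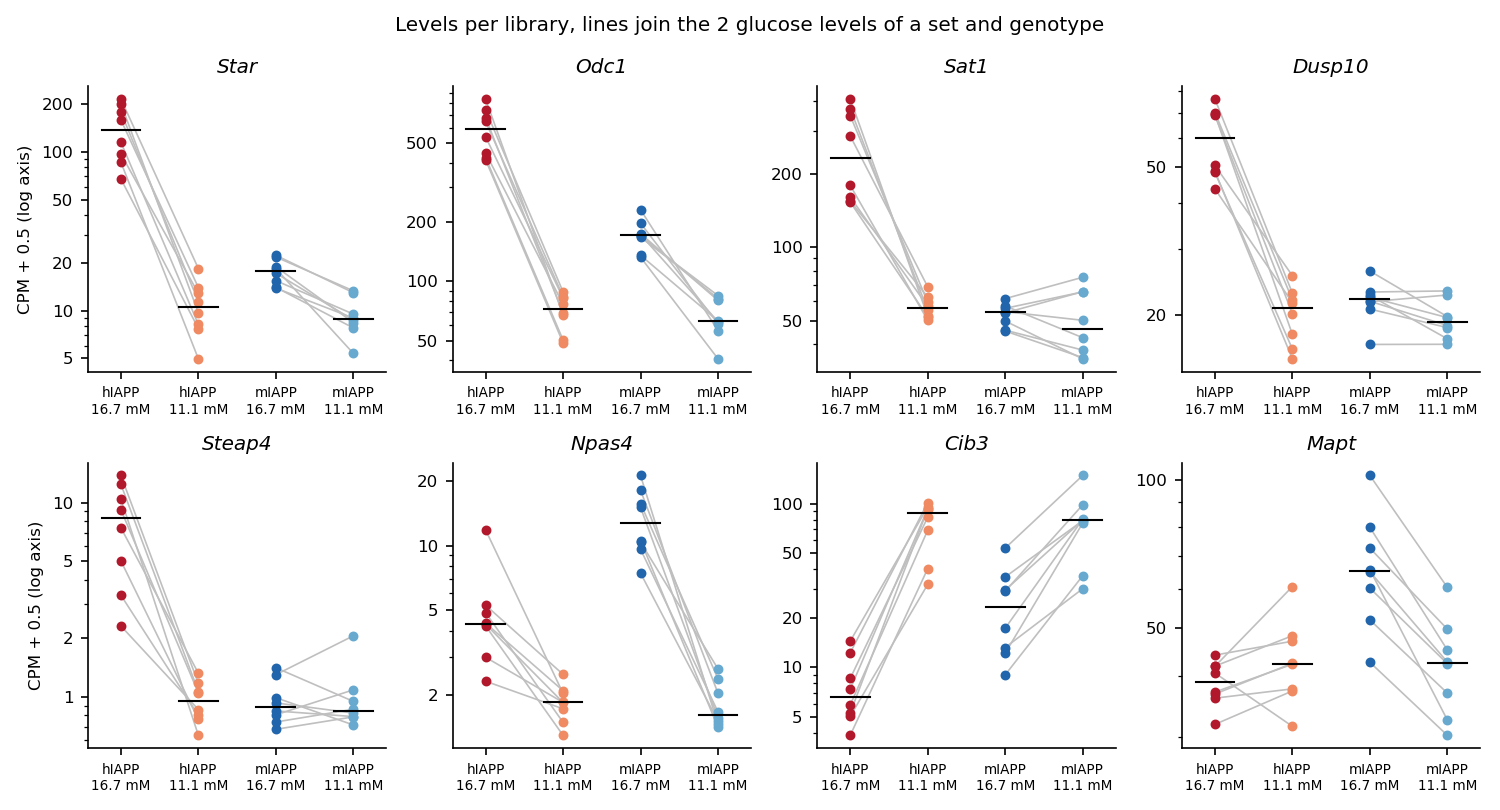
Levels of 8 genes in every library (CPM + 0.5, log axis), by group, with a bar at the group median and a line joining the 2 glucose levels of a set and genotype. Star, Odc1, Sat1, Dusp10 and Steap4 were highest in hIAPP islets at 16.7 mM; Npas4 and Mapt were highest in mIAPP islets at 16.7 mM, and Cib3 was lowest in hIAPP islets at 16.7 mM.

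The genes Odc1, Sat1, Dusp10 and Dusp8 were among those with the next smallest p. Odc1 and Sat1 encode the entry enzyme of polyamine synthesis (ornithine decarboxylase) and the acetyltransferase that starts polyamine breakdown. Odc1 (chromosome 12, 17544794 to 17551505, plus strand) stood at 413, 593 and 838 CPM in hIAPP islets at 16.7 mM and at 48.4, 72.4 and 88.1 CPM at 11.1 mM, against 132, 171 and 230.3 CPM in mIAPP islets at 16.7 mM and 40.1, 62.3 and 84.3 CPM at 11.1 mM. It rose with glucose in both genotypes, by log2 3.06 ± 0.14 in hIAPP and 1.40 ± 0.13 in mIAPP islets, an interaction of 1.66 ± 0.18 (adjusted p = 5.72e-06). Sat1 (chromosome X, 155213132 to 155216449, minus strand) stood at 153, 233 and 406 CPM in hIAPP islets at 16.7 mM and at 49.6, 55.7 and 68.3 CPM at 11.1 mM, against 44.8, 53.6 and 61 CPM in mIAPP islets at 16.7 mM and 34.3, 45.8 and 74.8 CPM at 11.1 mM. Its glucose effect was 2.13 ± 0.17 in hIAPP islets and 0.10 ± 0.17 in mIAPP islets (adjusted p = 0.634), with an interaction of 2.03 ± 0.24 (adjusted p = 1.3e-05). Both genes were higher in every hIAPP library at 16.7 mM than in any other library.

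Dusp10 and Dusp8 are dual-specificity phosphatases that switch off the stress kinases JNK and p38. Dusp10 (chromosome 1, 184013302 to 184075636, plus strand) stood at 43.2, 59.2 and 75.8 CPM in hIAPP islets at 16.7 mM and at 14.7, 20.3 and 25 CPM at 11.1 mM, against 16.1, 21.5 and 25.7 CPM in mIAPP islets at 16.7 mM and 16.1, 18.7 and 22.7 CPM at 11.1 mM. Dusp8 (chromosome 7, 142079490 to 142095843, minus strand) stood at 45.4, 66.1 and 80.3 CPM in hIAPP islets at 16.7 mM and at 21.1, 24.2 and 34.2 CPM at 11.1 mM, against 22, 27.1 and 33.9 CPM in mIAPP islets at 16.7 mM and 21.5, 27.3 and 39.7 CPM at 11.1 mM. For both, the hIAPP libraries at 16.7 mM stood above all others and the other 3 groups overlapped. The interactions were 1.43 ± 0.14 and 1.42 ± 0.16 (adjusted p = 1.58e-06 and 5.72e-06), while in mIAPP islets the glucose effects of 0.16 and -0.08 did not pass. The Dusp8 promoter window (250 bases before to 50 after the start, RefSeq on GRCm38.p6, chr7:142095235-142095534, minus strand) is shown because it holds the cyclic AMP response element TGACGTCA at 2 places, in capitals, beginning 107 and 63 bases before the start.
Dusp8: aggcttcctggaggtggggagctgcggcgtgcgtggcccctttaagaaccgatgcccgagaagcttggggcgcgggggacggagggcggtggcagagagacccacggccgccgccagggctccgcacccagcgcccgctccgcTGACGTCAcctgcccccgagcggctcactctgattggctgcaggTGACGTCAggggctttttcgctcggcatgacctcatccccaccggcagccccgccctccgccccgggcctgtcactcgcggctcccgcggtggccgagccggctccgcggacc

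Several receptor and signalling genes were also positive. Igf1r, the receptor for insulin-like growth factor 1, had medians of 495 and 141 CPM in hIAPP islets at 16.7 and 11.1 mM, against 199 and 139 CPM in mIAPP islets, with an interaction of 1.30 ± 0.16 (adjusted p = 2.71e-05). Inpp5f, a phosphoinositide phosphatase of endosomes, had medians of 274 and 59.1 CPM in hIAPP islets, against 106 and 52.7 CPM in mIAPP islets. The Inpp5f interaction was 1.15 ± 0.13 (adjusted p = 1.11e-05). Herc4, a ubiquitin ligase, had 1.38 ± 0.17 (adjusted p = 1.94e-05) and rose in both genotypes, by 2.19 in hIAPP and 0.81 in mIAPP islets. Its set 3 value of 0.29 was the lowest of the 8, against a mean of 1.49 over the 6 sets other than 3 and 4. Lrtm2, a leucine-rich repeat membrane protein, had 2.09 ± 0.27 (adjusted p = 2.99e-05), with 11.7 and 3.44 CPM in hIAPP against 3.96 and 4.20 CPM in mIAPP islets.

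All 14 calls in 3 inflammatory lists were positive. The members of these and the later lists were chosen with earlier results of these data known. A count above the share of all genes is therefore no independent support. Of 26 NF-kB and inflammasome genes 5 had a positive and 0 a negative interaction, of 11 tested chemokines 2 and 0, and of 12 tested cytokine-induced effectors and alarmins 7 and 0, beside 2.17% and 0.95% of all genes. The medians were 0.48, 1.20 and 1.48, against -0.02 over all genes. In the same order, median glucose effects were 0.49, 0.52 and 2.00 in hIAPP islets and -0.31, -0.61 and -0.07 in mIAPP islets. The summed chemokine level had medians of 41.3 and 52.6 CPM in hIAPP islets at 16.7 and 11.1 mM, against 21.9 and 42.7 CPM in mIAPP islets. Of 22 interferon response genes 1 passed, the guanylate-binding protein gene Gbp2 (1.50 ± 0.40, adjusted p = 0.0356), with a list median of 0.04. The Gbp2 call ended without set 1, 2, 4, 6 or 8, with the mitochondrial covariate (1.42, adjusted p = 0.12), with no set block, by limma on per-set differences and with no filter on low counts.

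Steap4, a metalloreductase that inflammatory cytokines induce (chromosome 5, 7960457 to 7982213, plus strand), had the smallest p in these lists. It stood at 1.81, 7.80 and 13.3 CPM in hIAPP islets at 16.7 mM and at 0.132, 0.451 and 0.82 CPM at 11.1 mM, against 0.179, 0.386 and 0.909 CPM in mIAPP islets at 16.7 mM and 0.214, 0.342 and 1.56 CPM at 11.1 mM. Every hIAPP library at 16.7 mM lay above all others, and the interaction was 4.06 ± 0.48 (adjusted p = 1.48e-05). Cxcl1, a chemokine for neutrophils, stood at 3.69, 6.98 and 13.8 CPM in hIAPP islets at 16.7 mM and at 0, 0.037 and 0.252 CPM at 11.1 mM, against 0.06, 0.109 and 0.67 CPM in mIAPP islets at 16.7 mM and 0, 0 and 0.434 CPM at 11.1 mM. At least 1 of its groups averaged under 3 counts per library, so no fold is given, and it passed with an adjusted p of 0.00154. The difference of differences of Cxcl1 was 2.77 to 5.44 over the sets and 3.01 and 3.07 in sets 3 and 4. Ccl2, a chemokine for monocytes, had medians of 4.50 and 0.207 CPM in hIAPP islets, against 0.218 and 0.138 CPM in mIAPP islets (adjusted p = 0.00454), and did not pass without set 1 (adjusted p = 0.051). S100a9, which encodes a calcium-binding danger signal of myeloid cells, stood at 0.855, 2.84 and 22.7 CPM in hIAPP islets at 16.7 mM, and at 11.1 mM it had no counts in most hIAPP libraries and at most 0.124 CPM. In mIAPP islets at 16.7 mM it had 0 counts in all 8 libraries, where 3 counts would be 0.0772 to 0.134 CPM, and at 11.1 mM at most 0.250 CPM. Of the neutrophil markers, 2 others were tested, Csf3r and Cxcr2, with interactions of -0.78 and -0.77 that did not pass (adjusted p = 0.305 and 0.183), and the summed level of the 3 was 2.84 to 25.1 CPM for hIAPP at 16.7 mM, 4.48 to 10.5 CPM for hIAPP at 11.1 mM, 2.12 to 9.16 CPM for mIAPP at 16.7 mM and 3.87 to 12.7 CPM for mIAPP at 11.1 mM. Fewer cells of a type and less RNA per cell cannot be told apart in bulk islets.

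Within the NF-kB list the p52 precursor gene Nfkb2 had the smallest p. Nfkb2 (chromosome 19, 46304320 to 46312385, plus strand) stood at 18.2, 23.9 and 35.2 CPM in hIAPP islets at 16.7 mM and at 10.2, 10.8 and 13.7 CPM at 11.1 mM, against 9.18, 10.5 and 14.5 CPM in mIAPP islets at 16.7 mM and 10.3, 11.3 and 16.9 CPM at 11.1 mM, an interaction of 1.31 ± 0.18 (adjusted p = 7.76e-05). Nos2, the inducible nitric oxide synthase, had medians of 2.64 and 0.349 CPM in hIAPP islets, against 0.172 and 0.234 CPM in mIAPP islets. The Nos2 interaction was 4.24 ± 0.76 (adjusted p = 0.00151). Birc3, an inhibitor of cell death that NF-kB induces, had 0.91 ± 0.18 (adjusted p = 0.00348) and with the mitochondrial covariate 0.59 (adjusted p = 0.0596). Icam1, an adhesion molecule, had a glucose effect of 0.70 ± 0.26 in hIAPP islets and -0.80 ± 0.27 in mIAPP islets. The Icam1 interaction was 1.50 ± 0.37 (adjusted p = 0.0249) and did not pass without set 2, 3, 4, 6 or 8. Tnip1, an NF-kB inhibitor named after its value was seen, was the fifth call (0.45 ± 0.13, adjusted p = 0.0473); it fell in mIAPP islets (-0.41, adjusted p = 0.000572) and did not pass under 16 of 23 alternatives, the mitochondrial covariate among them (0.44, adjusted p = 0.133). Of the cytokine effectors, Socs3, a feedback inhibitor of JAK-STAT signalling, had 0.83 ± 0.14 and Lif, a cytokine of the interleukin 6 family, 2.04 ± 0.44 (adjusted p = 0.00106 and 0.00707). Complement factor gene Cfb (2.65), the serpin gene Serpina3n (1.86), whose close paralogs make its reads uncertain, and the macrophage growth factor gene Csf1 (1.10) completed the 7 and were named after their values were seen. The calls of Cfb and Csf1 ended with the mitochondrial covariate, at 2.03 and 0.61 (adjusted p = 0.195 and 0.164). Cfb also did not pass without set 1 or 8, Csf1 without set 6, and Serpina3n without set 1, 2, 3, 6 or 8, with no filter on low counts or with the Y-linked level as a covariate. With no set block Icam1, Serpina3n and Csf1 did not pass, and by limma on per-set differences Icam1, Socs3, Lif and Serpina3n did not.

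The promoter windows of Cxcl1 (chr5:90890995-90891294, plus strand) and of Nfkb2 (chr19:46305445-46305744, plus strand) are shown because each holds the NF-kB motif, GGGA, any base, then TTTCC, searched on both strands and shown in capitals. In Cxcl1 it begins 71 bases before the start. In the Nfkb2 window shown it begins 10 bases after the start, and that window also holds the AP-1 motif TGANTCA. Nfkb2 has windows at other starts as well. The window at chr19:46304487-46304786 held none of the motifs searched. In the window at chr19:46305680-46305979 the same NF-kB site begins 225 bases before the start. A match is a description of these letters and says nothing of binding.
Cxcl1: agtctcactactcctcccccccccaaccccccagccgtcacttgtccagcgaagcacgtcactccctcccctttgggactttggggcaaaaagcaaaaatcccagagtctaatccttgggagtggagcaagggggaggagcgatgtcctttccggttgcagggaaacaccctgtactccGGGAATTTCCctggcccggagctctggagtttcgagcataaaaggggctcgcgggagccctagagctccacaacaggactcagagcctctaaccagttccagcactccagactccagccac
Nfkb2: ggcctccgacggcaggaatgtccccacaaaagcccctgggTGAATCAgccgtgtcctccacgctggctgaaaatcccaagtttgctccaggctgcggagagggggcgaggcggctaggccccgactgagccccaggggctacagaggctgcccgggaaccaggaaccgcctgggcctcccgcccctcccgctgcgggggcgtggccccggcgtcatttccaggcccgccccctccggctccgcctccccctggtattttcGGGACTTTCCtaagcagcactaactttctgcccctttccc

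Epithelial injury genes were mostly positive among those called. Of 22 tested genes of the laminin and epithelial injury list, 6 passed as positive and 1 as negative, beside 2.17% and 0.95% of all genes. The list's median was 0.49, and its members too were chosen with earlier results of these data known. Lama3, which encodes a laminin alpha chain of epithelial basement membranes (chromosome 18, 12333819 to 12583013, plus strand), stood at 12.5, 20.0 and 65.6 CPM in hIAPP islets at 16.7 mM and at 0.263, 0.57 and 2.35 CPM at 11.1 mM, against 0.469, 1.21 and 2.28 CPM in mIAPP islets at 16.7 mM and 0.0955, 0.687 and 1.25 CPM at 11.1 mM. Its interaction was 4.33 ± 0.65 (adjusted p = 0.0003), and every hIAPP library at 16.7 mM lay above all others. Sprr1a, a cross-linked envelope protein that injured epithelia and nerves make (chromosome 3, 92483952 to 92485895, minus strand), stood at 13.7, 39.7 and 122 CPM in hIAPP islets at 16.7 mM and at 0.36, 0.873 and 3.15 CPM at 11.1 mM, against 0.724, 1.35 and 1.79 CPM in mIAPP islets at 16.7 mM and 0.259, 0.61 and 2.32 CPM at 11.1 mM. The Sprr1a interaction was 4.81 ± 0.81 (adjusted p = 0.00106). The 8 sets differed widely for Sprr1a, between 2.00 and 6.34. Tnfrsf12a, the receptor for the cytokine TWEAK, had 1.68 ± 0.29 (adjusted p = 0.00115). The keratins Krt7 and Krt8 had 0.69 and 0.63 (adjusted p = 0.0103 and 0.0265), and Hbegf, an EGF receptor ligand, was the negative member with -0.60 ± 0.17 (adjusted p = 0.0482), a call that ended when any of 7 sets was left out. Krt8 did not pass without set 2, 4, 5 or 8. With the mitochondrial covariate Krt8 and Hbegf did not pass (0.55 and -0.46, adjusted p = 0.119 and 0.257), nor with no set block, and by limma on per-set differences Tnfrsf12a and Krt7 did not pass either. Hbegf was also lost with RLE scaling, with mitochondrial genes removed before scaling, with no filter on low counts and without 1 library of set 7. Krt8 and Hbegf were named after their values were seen.

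Krt7 is also a marker of ductal cells, and it was the 1 called of 10 tested ductal markers (median 0.07), beside 3.12% of all genes. The summed level of these 10 was 736 to 1476 CPM for hIAPP at 16.7 mM, 411 to 715 CPM for hIAPP at 11.1 mM, 569.5 to 1029 CPM for mIAPP at 16.7 mM and 396 to 578 CPM for mIAPP at 11.1 mM. Whether ductal cells contribute to the epithelial genes was not tested.

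AP-1 and other immediate early genes were positive in all but 1 of the calls. Of 25 tested, 11 passed as positive and 1 as negative, beside 2.17% and 0.95% of all genes. Earlier results of these data were known when this list was made. The median interaction was 0.65, and the glucose effect had a median of 1.29 in hIAPP and 0.38 in mIAPP islets. Jun, a core subunit of AP-1, stood at 61.3, 86 and 126 CPM in hIAPP islets at 16.7 mM and at 19.4, 34.4 and 58.1 CPM at 11.1 mM, against 18.8, 27.8 and 50.0 CPM in mIAPP islets at 16.7 mM and 18.6, 29.5 and 34.6 CPM at 11.1 mM. The Jun interaction was 1.22 ± 0.16 (adjusted p = 3.96e-05). Maff, a small MAF factor that lacks an activation domain (chromosome 15, 79346621 to 79359076, plus strand), stood at 26.1, 33.1 and 37.5 CPM in hIAPP islets at 16.7 mM and at 6.81, 9.24 and 12.4 CPM at 11.1 mM, against 11.3, 13.1 and 19.8 CPM in mIAPP islets at 16.7 mM and 8.76, 10.4 and 11.4 CPM at 11.1 mM. The Maff interaction was 1.33 ± 0.17 (adjusted p = 2.95e-05). The hIAPP libraries at 16.7 mM lay above all others for both genes. Atf3, a stress-induced factor that pairs with JUN, had 1.45 ± 0.24 (adjusted p = 0.000726), with 10.4 and 5.02 CPM in hIAPP against 3.77 and 4.11 CPM in mIAPP islets. Named after their values were seen, Fosl2 (1.02), Junb (0.98), Ier3 (1.10), Klf4 (1.24), Klf6 (0.73), Dusp1 (0.71) and Dusp5 (0.58) were the other positive members. Without 1 set the calls of Dusp1 (sets 1 to 6 or 8), Klf4 (set 1, 2, 3, 4, 6 or 8) and Klf6 (set 1, 4 or 6) ended. With the mitochondrial covariate 4 positive calls ended, those of Junb (0.74, adjusted p = 0.0721), Klf6 (0.71, adjusted p = 0.0649), Dusp1 (0.50, adjusted p = 0.323) and Dusp5 (0.43, adjusted p = 0.12). With no set block Junb, Dusp1, Klf4 and Klf6 did not pass, by limma on per-set differences these and Ier3 and Dusp5 did not, and with no filter on low counts Dusp1 and Klf4 did not.

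The NR4A orphan receptors split. Nr4a2 had medians of 77.7 and 7.15 CPM in hIAPP islets at 16.7 and 11.1 mM, against 33.6 and 5.54 CPM in mIAPP islets, and an interaction of 0.97 ± 0.18 (adjusted p = 0.00215). Nr4a1, named after its value was seen, had medians of 39.8 and 8.26 CPM in hIAPP islets, against 47.4 and 4.17 CPM in mIAPP islets, and an interaction of -1.11 ± 0.26 (adjusted p = 0.0148). Both rose with glucose in both genotypes, and the smaller rise of Nr4a1 in hIAPP islets went with a higher level at 11.1 mM (log2 0.95, adjusted p = 0.0306), while the difference of -0.16 at 16.7 mM did not pass (adjusted p = 0.524). The Nr4a1 call ended without set 1, 2 or 4, with no set block and by limma on per-set differences, and set 3 went the other way (0.81).

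The windows of Sprr1a (chr3:92485832-92486131, minus strand) and of Srxn1 (chr2:152105274-152105573, plus strand), an oxidative stress gene with a positive interaction, are shown because they hold the AP-1 match TGAGTCA in capitals at 2 places each; in Sprr1a the TATA box is in capitals as well.
Sprr1a: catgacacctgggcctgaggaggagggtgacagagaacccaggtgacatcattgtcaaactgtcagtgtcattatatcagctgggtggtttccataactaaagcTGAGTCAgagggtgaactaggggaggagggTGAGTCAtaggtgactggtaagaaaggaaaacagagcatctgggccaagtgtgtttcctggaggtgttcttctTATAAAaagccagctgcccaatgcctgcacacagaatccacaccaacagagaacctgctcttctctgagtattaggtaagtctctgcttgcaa
Srxn1: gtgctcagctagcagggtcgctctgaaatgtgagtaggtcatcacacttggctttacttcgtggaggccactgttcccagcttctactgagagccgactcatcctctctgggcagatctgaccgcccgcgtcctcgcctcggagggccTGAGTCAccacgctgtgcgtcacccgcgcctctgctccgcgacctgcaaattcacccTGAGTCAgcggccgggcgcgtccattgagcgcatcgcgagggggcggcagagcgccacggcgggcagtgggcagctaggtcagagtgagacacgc
Over all called genes with a window, the AP-1 motif was in 8.53% of 375 windows of positive genes and 3.91% of 128 windows of negative genes, against 5.63% of the 15063 windows of genes tested and 7.81% of all 32851. For the cyclic AMP element TGACGTCA these shares were 4.53, 2.34, 2.83 and 1.79%, and for the NF-kB motif 1.07, 0, 0.412 and 0.411%, the first from 4 windows. Windows of 1 gene overlap, and no test was made.

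**Figure D4:**
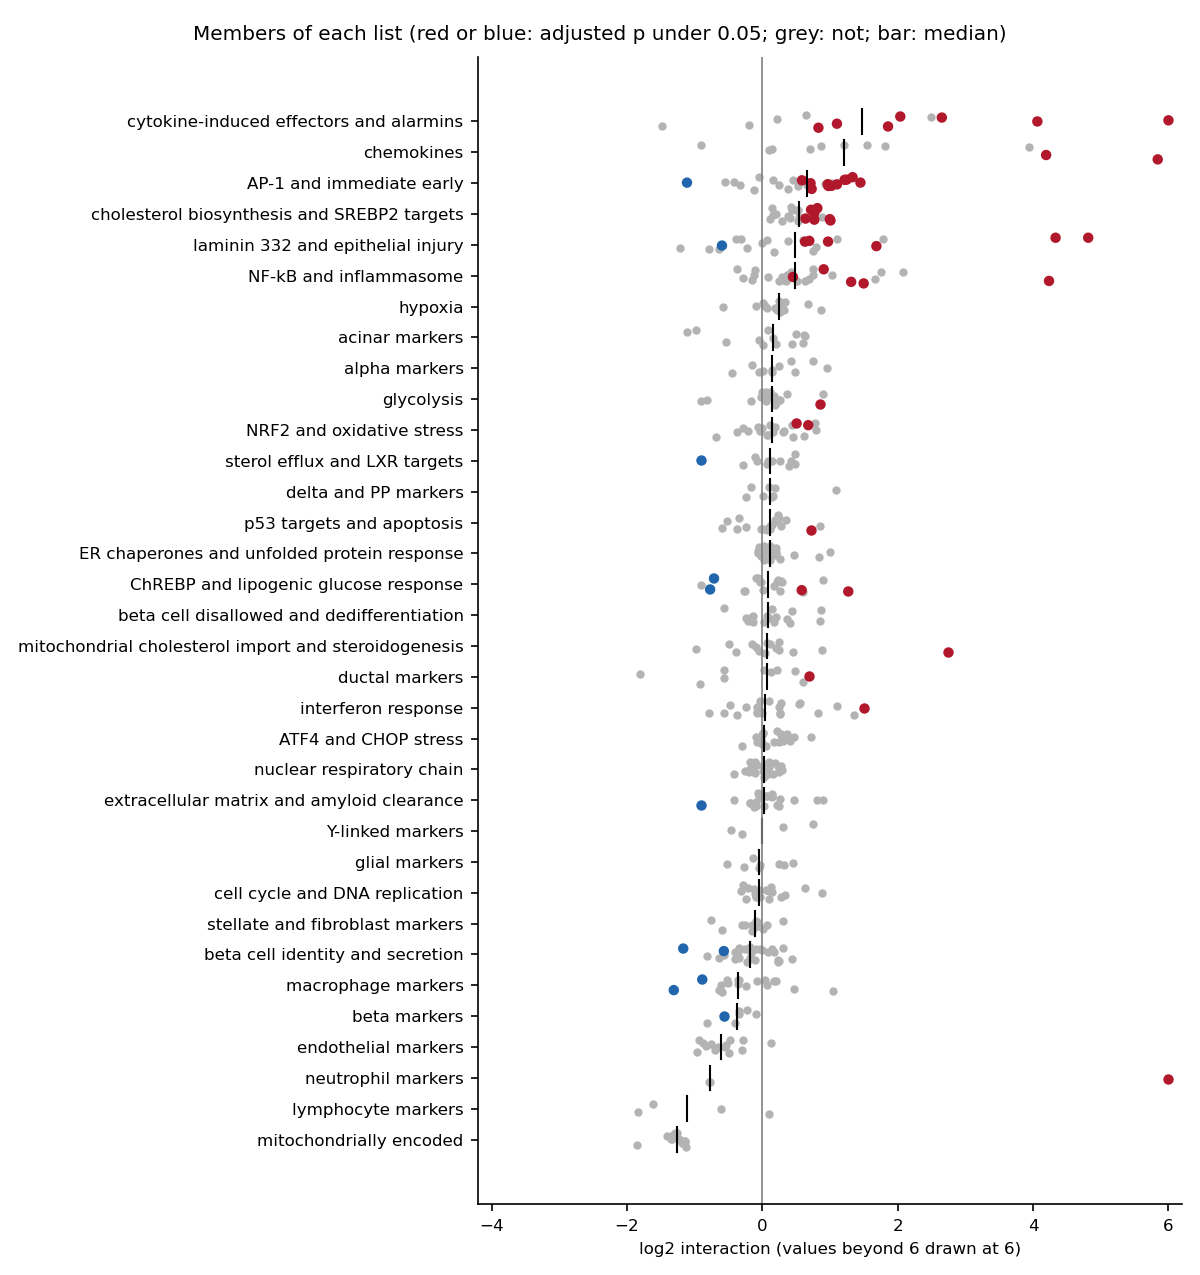
Log2 interaction of every tested member of each gene list and marker list, with a black bar at the list's median; red and blue points passed an adjusted p of 0.05 and grey points did not. Lists run from the cytokine-induced effectors (median 1.48) at the top to the mitochondrially encoded genes (median -1.27) at the bottom. Of the latter 0 of 13 passed, beside 3.12% of all genes.

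Cholesterol synthesis genes all had positive estimates. Of 24 genes, 7 passed as positive and 0 as negative, beside 2.17% and 0.95% of all genes. This list was also made with earlier results of these data known. The median interaction was 0.53, and median glucose effects were 0.94 in hIAPP and 0.37 in mIAPP islets. Msmo1, a sterol C4-demethylation enzyme, stood at 84.1, 105 and 153 CPM in hIAPP islets at 16.7 mM and at 33.3, 43.5 and 60.4 CPM at 11.1 mM, against 35.5, 60.8 and 66.6 CPM in mIAPP islets at 16.7 mM and 31.5, 36.5 and 57.2 CPM at 11.1 mM. The Msmo1 interaction was 0.77 ± 0.15 (adjusted p = 0.00327). At 16.7 mM it was higher in every hIAPP library than in any mIAPP library. Dhcr7, which makes cholesterol from its last precursor, had 1.00 ± 0.20, and Fdft1, the squalene synthase, 0.64 ± 0.14 (adjusted p = 0.00412 and 0.00755). Sqle, Lss and Fdps, named after their values were seen, had 0.76, 0.72 and 0.81, and Fdps did not pass without set 2. With the mitochondrial covariate Dhcr7 (0.67, adjusted p = 0.0624) and Sqle, Lss and Fdps (0.44, 0.47 and 0.60, adjusted p = 0.106, 0.108 and 0.161) did not pass. With no set block Msmo1, Fdps, Sqle and Lss did not pass, and by limma on per-set differences Msmo1, Fdft1, Fdps and Sqle did not. Of 12 tested sterol efflux genes 0 passed as positive and 1 as negative, Apoe, the apolipoprotein of sterol transport (-0.91 ± 0.22, adjusted p = 0.0213), which is also in the matrix and amyloid clearance list as the 1 called of 23, and which did not pass without set 1, 2, 4 or 6, with the mitochondrial covariate (-0.85, adjusted p = 0.106), with no set block or by limma on per-set differences.

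Genes of fuel use moved in both directions. Of 20 genes of the ChREBP and lipogenic list, 2 were positive and 2 negative, beside 2.17% and 0.95% of all genes. The positive ones were the ATP citrate lyase Acly (0.58 ± 0.13) and the desaturase Scd1 (1.27 ± 0.31). The negative ones were Mlxipl (-0.71 ± 0.17), which encodes ChREBP itself, and the ketohexokinase Khk (-0.77 ± 0.21; adjusted p = 0.0124, 0.0214, 0.0176 and 0.0365). Mlxipl fell with glucose in both genotypes. It stood at 104, 164 and 218 CPM in hIAPP islets at 16.7 mM and at 447, 643 and 1031 CPM at 11.1 mM, against 140.2, 282 and 435 CPM in mIAPP islets at 16.7 mM and 368, 688 and 1022 CPM at 11.1 mM. All 4 calls ended with the mitochondrial covariate (0.36, 1.04, -0.44 and -0.36, adjusted p = 0.107, 0.132, 0.215 and 0.427) and without set 1; Scd1 also did not pass without set 4, Mlxipl without set 6, and Khk without set 2, 4, 6, 7 or 8. Pfkp, a phosphofructokinase, was the 1 called of 20 glycolysis genes (0.85 ± 0.20, adjusted p = 0.0163), and did not pass without set 1, 2, 6 or 8. None of these 5 passed with no set block or by limma on per-set differences, and Khk was also lost with a block by set and genotype and without 1 library of set 7.

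In 5 stress lists other than inflammation 3 of 103 tested genes passed (2.91%), a share near the 3.12% of all genes. Over all 16428 genes, 3055 had an unadjusted p under 0.05, and DESeq2 called 5.84% and voom 5.65%. Of 23 chaperones and unfolded protein response genes 0 passed in edgeR (2 at an unadjusted p under 0.05, 1 by DESeq2 and 0 by voom). Their median glucose effect was 1.41 in hIAPP and 1.19 in mIAPP islets, with a median interaction of 0.11. The sensors with the smallest p were Eif2ak3, which encodes PERK (0.83 ± 0.28, adjusted p = 0.0999), and Ern1, which encodes IRE1 (1.00 ± 0.36, adjusted p = 0.131). Of 24 ATF4 and CHOP genes, 15 hypoxia genes and 20 cell cycle genes 0 passed in edgeR, with medians of 0.03, 0.25 and -0.05. In the same order 5, 1 and 1 had an unadjusted p under 0.05, DESeq2 called 1, 1 and 0, and voom 1, 0 and 0. Of 22 NRF2 and oxidative stress genes 2 passed. Srxn1, which repairs oxidised peroxiredoxins, stood at 177, 213 and 248 CPM in hIAPP islets at 16.7 mM and at 63.3, 83.2 and 86.6 CPM at 11.1 mM, against 98.4, 138 and 150.1 CPM in mIAPP islets at 16.7 mM and 55.3, 76.3 and 102 CPM at 11.1 mM. The Srxn1 interaction was 0.68 ± 0.10 (adjusted p = 0.000312). Txnrd1, a thioredoxin reductase, had 0.51 ± 0.11 (adjusted p = 0.00572) and did not pass with the mitochondrial covariate (0.33, adjusted p = 0.0677), with no set block or by limma on per-set differences. Of 20 p53 and apoptosis genes, the survival gene Bcl2l1 was the 1 called, with medians of 57.8 and 37.7 CPM in hIAPP islets, against 37.1 and 38.1 CPM in mIAPP islets. The Bcl2l1 interaction was 0.72 ± 0.13 (adjusted p = 0.00182).

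Among negative interactions, one kind was a rise with glucose in mIAPP islets that was smaller or absent in hIAPP islets. Npas4 (chromosome 19, 4984355 to 4990316, minus strand), a transcription factor that calcium entry switches on in excited cells, stood at 1.81, 3.81 and 11.4 CPM in hIAPP islets at 16.7 mM and at 0.791, 1.34 and 1.99 CPM at 11.1 mM, against 6.93, 12.3 and 20.8 CPM in mIAPP islets at 16.7 mM and 0.909, 1.11 and 2.14 CPM at 11.1 mM. It rose in both genotypes, in hIAPP islets by 1.58 ± 0.23 and in mIAPP islets by 3.26 ± 0.24, an interaction of -1.68 ± 0.32 (adjusted p = 0.0028). Mapt (chromosome 11, 104231390 to 104332090, plus strand), which encodes the microtubule protein tau, stood at 31.4, 38.3 and 43.6 CPM in hIAPP islets at 16.7 mM and at 31.1, 41.8 and 60.2 CPM at 11.1 mM, against 42.1, 64.9 and 101 CPM in mIAPP islets at 16.7 mM and 29.8, 42 and 60.0 CPM at 11.1 mM. Its level rose in mIAPP islets in 8 of 8 sets and was higher at 16.7 mM in 1 of 8 sets of hIAPP islets (-0.80 ± 0.13, adjusted p = 0.000484). Otoa, which encodes otoancorin, first known from the inner ear, stood at 2.07, 6.45 and 10.7 CPM in hIAPP islets at 16.7 mM and at 4.38, 5.94 and 9.22 CPM at 11.1 mM, against 9.14, 21.7 and 30.7 CPM in mIAPP islets at 16.7 mM and 4.60, 6.69 and 9.30 CPM at 11.1 mM. The Otoa interaction was -1.63 ± 0.29 (adjusted p = 0.00115). Sets 3 and 4 held the smallest and the largest Otoa value, -0.44 and -2.88. The Mapt call ended by limma on per-set differences.

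Of the other genes of that kind, Dapl1 rose in both genotypes, by 1.97 in hIAPP and 3.30 in mIAPP islets (-1.33 ± 0.25, adjusted p = 0.00215), but set 3 went the other way at 0.44. Zdhhc22, a palmitoyltransferase, had medians of 8.95 and 3.95 CPM in hIAPP islets, against 25.4 and 3.76 CPM in mIAPP islets. The Zdhhc22 interaction was -1.52 ± 0.30 (adjusted p = 0.00395). Lgi2, a secreted leucine-rich repeat protein, rose in mIAPP islets by 1.72, while in hIAPP islets its 0.34 did not pass (-1.38 ± 0.27, adjusted p = 0.00377). Asb11, an adaptor of a ubiquitin ligase, had -1.13 ± 0.21 (adjusted p = 0.00226). Enah, an actin regulator, and Terf2, a telomere-binding protein, moved in opposite directions: both fell in hIAPP islets (-0.26 and -0.29) and rose in mIAPP islets (0.17 and 0.22), with interactions of -0.43 and -0.51 (adjusted p = 0.00215 and 0.00232). By limma on per-set differences Dapl1, Zdhhc22, Lgi2, Enah and Terf2 did not pass, and with no set block Dapl1 did not.

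Defb1, an antimicrobial beta-defensin (chromosome 8, 21776599 to 21795185, plus strand), had the smallest p of the negative genes and also moved in opposite directions. Its level was 7.20, 12.2 and 19.8 CPM in hIAPP islets at 16.7 mM and 16.2, 24.6 and 43.4 CPM at 11.1 mM, against 21.1, 34 and 44.1 CPM in mIAPP islets at 16.7 mM and 15.4, 26.4 and 36.3 CPM at 11.1 mM. It fell in hIAPP islets in 8 of 8 sets (-1.02) and rose in mIAPP islets in 7 of 8 (0.35), an interaction of -1.37 ± 0.18 (adjusted p = 3.64e-05). No hIAPP library at 16.7 mM reached the lowest mIAPP library at 16.7 mM.

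The other negative kind was a fall with glucose that was deeper in hIAPP islets. Cib3 (chromosome 8, 72204335 to 72212837, minus strand), a calcium- and integrin-binding protein, stood at 3.35, 6.14 and 14 CPM in hIAPP islets at 16.7 mM and at 31.7, 87.5 and 101 CPM at 11.1 mM, against 8.52, 22.8 and 53.1 CPM in mIAPP islets at 16.7 mM and 29.8, 78.8 and 149 CPM at 11.1 mM. It fell in all 8 sets of both genotypes, with glucose effects of -3.42 in hIAPP and -1.72 in mIAPP islets (-1.70 ± 0.24, adjusted p = 0.000104). Coq8a, a kinase-like protein of coenzyme Q synthesis, and Kdsr, a reductase of sphingolipid synthesis, had -0.60 and -0.63 (adjusted p = 0.00133 and 0.0025). Cxxc4, an inhibitor of Wnt signalling, and Ccdc162, a coiled-coil protein, fell in hIAPP islets (-0.69 and -0.85), while their effects of 0.02 and -0.10 in mIAPP islets did not pass (interactions -0.71 and -0.75). Hpgd, Ccnb1ip1 and Pou2f2 had larger estimates at low levels (-1.96, -1.58 and -1.40), and each of the 3 calls ended with the mitochondrial covariate (-1.44, -0.77 and -0.71, adjusted p = 0.194, 0.413 and 0.215) and without set 1, 4 or 8. Without set 2 or 3 Hpgd, and without set 6 Pou2f2, did not pass either, nor did Ccnb1ip1 without 1 library of set 7. By limma on per-set differences these 3 and Cxxc4, Coq8a and Kdsr did not pass, and with no set block these 3 and Cib3 and Ccdc162 did not.

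Of 28 beta cell identity and secretion genes, 2 passed as negative and 0 as positive, beside 0.95% and 2.17% of all genes. Their median interaction was -0.18, with 14 at an unadjusted p under 0.05 in edgeR, 5 called by DESeq2 and 4 by voom. Beside these stand 3055 of all 16428 genes at an unadjusted p under 0.05, 5.84% called by DESeq2 and 5.65% by voom. Trpm5, a cation channel that depolarises beta cells, stood at 7.72, 14.9 and 19.1 CPM in hIAPP islets at 16.7 mM and at 66.1, 106 and 148 CPM at 11.1 mM, against 17.4, 27.1 and 41 CPM in mIAPP islets at 16.7 mM and 78.8, 95.5 and 129.7 CPM at 11.1 mM. The Trpm5 interaction was -1.17 ± 0.23 (adjusted p = 0.00348). Nkx6-1, a transcription factor of mature beta cells, stood at 208, 257 and 328 CPM in hIAPP islets at 16.7 mM and at 385, 416 and 556 CPM at 11.1 mM, against 380.2, 415 and 616 CPM in mIAPP islets at 16.7 mM and 378, 426 and 973 CPM at 11.1 mM. The Nkx6-1 interaction was -0.57 ± 0.14 (adjusted p = 0.0257). Ucn3 (-0.57 ± 0.16, adjusted p = 0.0536) and Pdx1 (-0.40 ± 0.12, adjusted p = 0.0709) did not pass. The calls of Trpm5 and Nkx6-1 ended with the mitochondrial covariate (-0.85 and -0.52, adjusted p = 0.0763 and 0.0971), and by limma on per-set differences, and that of Nkx6-1 also with no set block and without set 1, 2, 4, 6 or 8. Nkx6-1 was also the 1 called of 8 beta cell markers (median -0.37), beside 3.12% of all genes. Of these markers 0 had a positive estimate and 5 had an unadjusted p under 0.05. DESeq2 called 3 and voom 2. Of 18 beta cell disallowed genes 0 passed in edgeR (1 at an unadjusted p under 0.05, 0 by DESeq2 and 1 by voom; median 0.08).

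Iapp itself did not pass: its interaction was -0.31 ± 0.15 (adjusted p = 0.269), although the difference of differences was negative in 8 of 8 sets, from -0.79 to -0.01 (exact sign-flip test, two-sided p = 0.0078125). With the mitochondrial covariate it was -0.52 and passed (adjusted p = 0.014). Reads of the human insert cannot be told apart from mouse Iapp reads here, since the labels do not say which IAPP sequence the reference held.

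Over the markers of 10 islet cell types other than beta cells, 4 of 103 tested genes passed (3.88%), a share near the 3.12% of all genes. Among all 16428 genes, 3055 had an unadjusted p under 0.05, and DESeq2 called 5.84% and voom 5.65%. Of 11 alpha, 8 delta and PP, 13 acinar, 14 stellate, 8 glial and 4 lymphocyte markers tested 0 passed in edgeR. At an unadjusted p under 0.05 there were 1 alpha, 0 delta and PP, 2 acinar, 1 stellate, 1 glial and 3 lymphocyte markers, and of these DESeq2 called 1 lymphocyte marker and voom 0. Of 14 endothelial markers 0 passed in edgeR (7 at an unadjusted p under 0.05, 1 by DESeq2 and 2 by voom), but 13 had negative estimates (median -0.61), with Flt1 at -0.94 ± 0.30 (adjusted p = 0.0881) and Pecam1 at -0.88 ± 0.30 (adjusted p = 0.11). Their summed level was 26.5 to 75.9 CPM for hIAPP at 16.7 mM, 88.7 to 233 CPM for hIAPP at 11.1 mM, 51.2 to 176 CPM for mIAPP at 16.7 mM and 84.5 to 251 CPM for mIAPP at 11.1 mM. Of 18 macrophage markers 2 were negative, Aif1 (-1.31 ± 0.29, adjusted p = 0.0101) and the fractalkine receptor Cx3cr1 (-0.89 ± 0.22, adjusted p = 0.0259), and both calls ended with the mitochondrial covariate (-0.63 and -0.79, adjusted p = 0.199 and 0.119), with no set block, by limma on per-set differences and without set 1, and that of Cx3cr1 also without set 2, 4, 6 or 8. The summed macrophage level was 121 to 260.0 CPM for hIAPP at 16.7 mM, 340.2 to 596 CPM for hIAPP at 11.1 mM, 130.1 to 289 CPM for mIAPP at 16.7 mM and 275 to 527 CPM for mIAPP at 11.1 mM. The part of these cells in the inflammatory genes was not tested. Y-linked genes, which follow the share of male islets, had a difference of differences of 2.02 ± 47.8 CPM (SD, n = 8; exact sign-flip test, two-sided p = 0.883), and 0 of 4 passed in edgeR, DESeq2 or voom, with 1 at an unadjusted p under 0.05.

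Mitochondrially encoded genes had the lowest median of all lists. All 13 estimates were negative with a median of -1.27, and 0 passed in edgeR, DESeq2 or voom, although 12 had an unadjusted p under 0.05. Of these, mt-Nd2, a subunit of complex I, had -1.30 ± 0.49 (adjusted p = 0.154), with 1086, 1584 and 3199.9 CPM in hIAPP islets at 16.7 mM and 2069, 8551 and 16136 CPM at 11.1 mM, against 1292, 3752 and 31736 CPM in mIAPP islets at 16.7 mM and 1381, 10008 and 25418 CPM at 11.1 mM. The ranges within each group other than hIAPP at 16.7 mM span several-fold, and all groups overlap. Of 27 nuclear respiratory chain genes 0 passed in edgeR, DESeq2 or voom (3 at an unadjusted p under 0.05), with a median of 0.03. For both lists, the shares of all genes called were 3.12% in edgeR, 5.84% by DESeq2 and 5.65% by voom. At an unadjusted p under 0.05 there were 3055 of all 16428 genes.

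**Figure D5:**
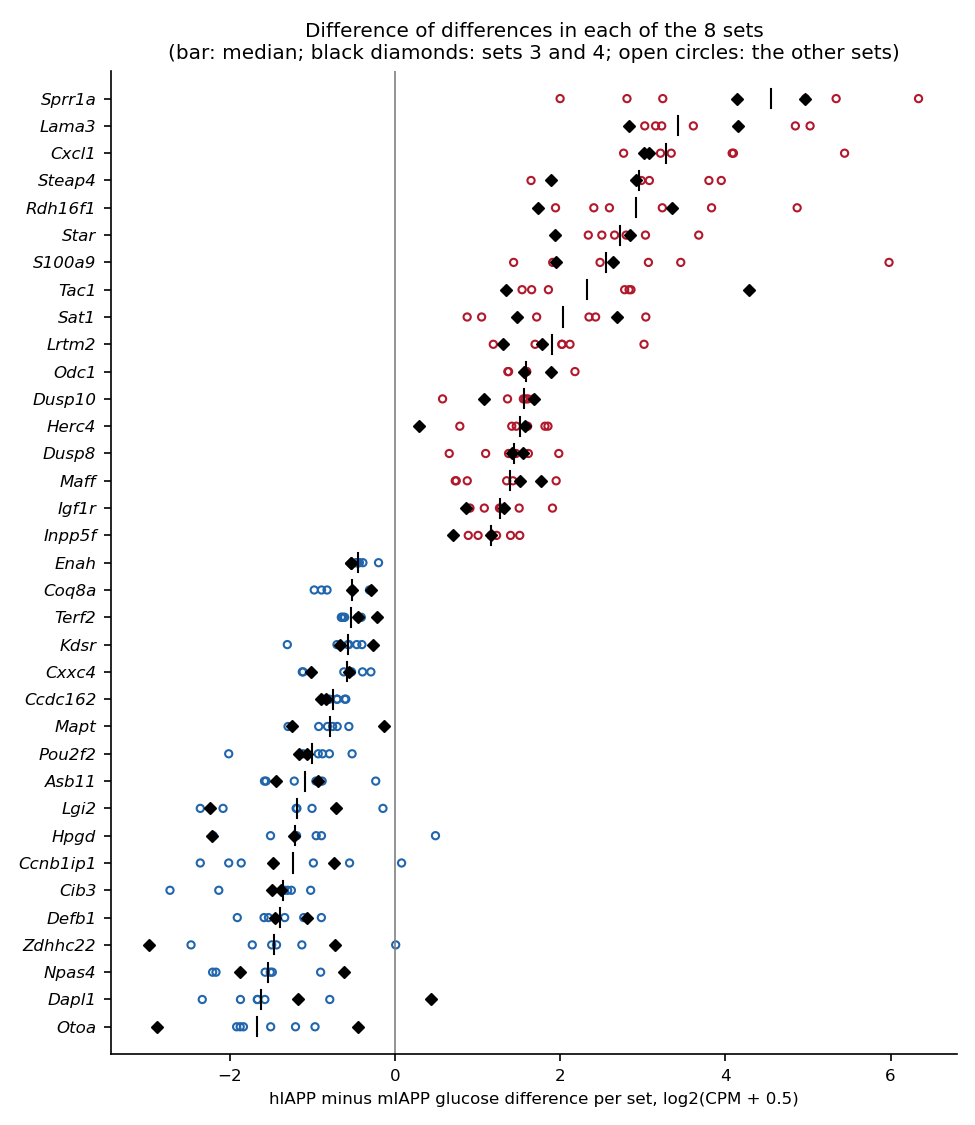
The difference of differences (log2(CPM + 0.5)) in each of the 8 sets for genes named by rule that passed the threshold, sorted by their median, which is the bar; black diamonds are sets 3 and 4 and open circles the other 6. All 17 genes with a positive interaction lie above 0 in every set, and single sets cross 0 among the negative ones (Dapl1, Hpgd, Ccnb1ip1, Zdhhc22). The genes were chosen by p or size over these same sets, with 1 sign in at least 7 of 8. Agreement in sign is therefore no check.

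A pair of genes with large positive interactions were near 0 outside hIAPP islets at 16.7 mM. Tac1, which encodes the neuropeptide substance P, stood at 1.37, 2.43 and 13 CPM in hIAPP islets at 16.7 mM and at 0, 0.021 and 0.264 CPM at 11.1 mM, against 0, 0.259 and 0.757 CPM in mIAPP islets at 16.7 mM and 0, 0.101 and 0.386 CPM at 11.1 mM (adjusted p = 0.00215). Rdh16f1, a retinol dehydrogenase paralog, stood at 1.16, 3.37 and 8.04 CPM in hIAPP islets at 16.7 mM and had 0 counts in all 8 hIAPP libraries at 11.1 mM, where 3 counts would be 0.0745 to 0.197 CPM, against at most 0.344 CPM in mIAPP islets at 16.7 mM and 1.01 CPM at 11.1 mM. Rdh16f1 overlaps Rdh9, so its reads are uncertain, and its call ended without set 8 and with a block by set and genotype.

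In the 18 libraries under 10% mitochondrial counts, of which 8 were hIAPP at 16.7 mM, 2 hIAPP at 11.1 mM, 5 mIAPP at 16.7 mM and 3 mIAPP at 11.1 mM, 7 genes passed. Star, Dusp8 (1.58, adjusted p = 0.00651), Maff (1.69, adjusted p = 0.0237), Dusp10 (1.49, adjusted p = 0.0425) and Steap4 (3.45, adjusted p = 0.0425) were among them. The other named calls did not pass there, those of Odc1, Sat1 and Sprr1a among them (adjusted p = 0.0604, 0.0623 and 0.184). In sets 3 and 4 and in the other 6 sets, the mean difference of differences was 2.39 and 2.84 for Star, 2.40 and 3.07 for Steap4, 3.04 and 3.83 for Cxcl1, 0.88 and 1.36 for Nfkb2, 1.73 and 1.62 for Odc1, 2.09 and 1.91 for Sat1, and 4.55 and 4.12 for Sprr1a.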

How the data were processed

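Poly(A) RNA from islets of 8 experiment sets was sequenced with a directional kit, per the labels' protocols. The authors deposited 1 table of expected counts per gene, all whole numbers, for 36595 genes and 32 libraries; bcl2fastq 1.8.4, kallisto 0.45.0 and the build GRCm38 are named in the submitters' processing notes. How transcripts were summed to genes, and whether strand was used, is not given in the sources used here. Of the identifiers, 36047 were found in GENCODE M21, which gave coordinates on GRCm38. The members and lists were chosen with earlier results of these data known.

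Counts were tested with edgeR 4.0.16 in R 4.3.3: TMM scaling, removal of genes with low counts by group, a robust quasi-likelihood fit with the set as a block (21 residual degrees of freedom), and Benjamini-Hochberg adjustment over 16428 genes at a threshold of 0.05. The labels say that each of the 8 sets held all 4 groups. Libraries of 1 set deviated together on average, with mean correlations of 0.168 to 0.362 between groups, although single pairs ran down to -0.23. Per-set differences used log2(CPM + 0.5), and exact sign-flip tests were run for Star, Iapp and library measures. The fit was tested on simulated data, which held no genotype effect that varied between sets and no shared shift of mitochondrial genes between groups. The simulation therefore cannot decide between the set block and the per-set differences.

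Named genes were Star and Iapp, then per direction up to 12 called genes with the smallest p and up to 6 with the largest change, provided that they averaged 1 CPM or more and had 1 sign in at least 7 of 8 sets, passing over unnamed gene models. A list could add its 4 members of lowest p. Some genes that met these rules are not reported here. Alternatives used DESeq2 1.42.0, limma 3.58.1, other scaling, filters, blocks and covariates, and leaving out sets or libraries. Promoter windows came from RefSeq on GRCm38.p6; Star was not matched. Motifs were searched on both strands.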

Additional observations from a re-analysis of the deposited data

Results flagged for a closer look

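The interaction is itself a difference between groups in their answer to glucose, and it was tested directly: 513 genes passed in edgeR, and for Star the glucose effects of hIAPP and mIAPP islets differed by 2.75 on the log2 scale.

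Of 52 groups of 8 values tested for a library or set far from the others, 6 had one, and chance alone gives about 1 in 20. For S100a9 the difference of differences of set 6 was 5.98, with the next set at 3.46. For Enah set 6 was the least negative at -0.197, with the next at -0.386. Set 7 was the most negative for Kdsr, at -1.30 with the next set at -0.70, and for Pou2f2, at -2.01 with the next at -1.16. In set 7, the 16.7 mM mIAPP library held 37.0% mitochondrial counts, with the next library of its group at 13.4%; without it 453 genes were called. The 11.1 mM mIAPP library of that set had the lowest total count, 16.1 M, with the next of its group at 23.0 M.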

How the results depend on the processing

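Against 513 genes called, 196 were called with no replicate block, 959 by DESeq2 (636 positive, 323 negative), 929 by limma voom (503 and 426), 163 by limma on per-set differences (151 and 12), 331 with the mitochondrial level and 985 with the Y-linked level as covariate. In libraries under 10% mitochondrial counts 7 were called, and in sets 3 and 4 alone, an alternative chosen after seeing the data, edgeR called 0 (825 at an unadjusted p under 0.05); both use fewer samples, and the cause of the other shifts was not tested. Leaving out 1 set gave 239 (without set 1) to 558 genes (without set 7), 190 to 420 positive and 49 to 138 negative; without set 2 it was 310 and without set 6 it was 280.0. With no replicate block, 64 of 97 recomputed genes stayed on their side of the threshold and 33 did not pass; by limma on per-set differences 53 stayed and 44 did not pass. No estimate among the 97 changed sign under any of 23 settings, but most were chosen for their call over all sets.

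The mitochondrial share difference was -1.14 on a log2 scale (exact p = 0.0078125) and -7.49 (without set 2, exact p = 0.015625) to -3.07 points with 1 set left out. The total count difference ran from -2.77 to 1.34 M and the Y-linked difference from -6.74 to 12.1 CPM with 1 set left out, changing sign in both.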
